A study of Mus musculus with 24 samples.

Results

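Solute carriers are membrane proteins that move amino acids, sugars, nucleosides, metals, inorganic ions and mitochondrial metabolites across the plasma membrane and the membranes of organelles. Their gene symbols carry a family number, and a family usually shares a class of substrate. The genes described here are the 147 genes named as solute carriers, with a protein-coding transcript, that reached 1 FPKM or more, a count of fragments scaled by transcript length and library size, in at least 3 of 24 RNA-seq libraries of the mouse mastocytoma line P815. They were taken from 344 protein-coding genes with such a name, in a table of 55385 genes. They were thus chosen by their measured FPKM, and their being expressed is a description with no test. Of the 197 genes below the threshold, 32 had no count in any library. Just inside the threshold stood Slc2a8 and Slc38a9, whose third-highest libraries had 1.14 and 1.24 FPKM, and just outside it Slc26a10 and Slc26a5, at 0.999 and 0.975 FPKM. Of the 147 genes, 131 reached 1 FPKM in all 24 libraries. Without the 6 libraries with the hairpin, 146 of them would still have met the rule from the other 18. The exception is Slc2a9, which was at 1 FPKM or more in 5 libraries, all with the hairpin, and so had to be higher there. Only 143 of the 147 are transporters or their subunits, since Slc9a3r1 and Slc9a3r2 encode scaffold proteins, Slc4a1ap an adaptor-like protein and Slc7a6os a protein named for its place opposite a transporter gene.

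The study compared 8 groups of 3 libraries. SH cells carried a short hairpin RNA vector against Esr1, the gene of estrogen receptor alpha, and were sampled with β-estradiol (SH_E2) or without it (SH). Cells given the antiestrogen ICI-182780, which is fulvestrant, formed the groups ICI_E2 and ICI, and cells given tamoxifen formed Tamo_E2 and Tamo. The cells they were set against carried a negative control vector and formed NC_E2 and NC. The label times are 24 h for every group but SH and NC, for which none is stated. All cells grew with 10% fetal bovine serum, and no dose, vehicle group or untransfected group is labelled. The labels do not tie the inhibitor arms to a vector, so drug and vector cannot be told apart in a comparison of those arms with NC. They also do not say how many hairpins were used, whether the SH cells are 1 clone, or whether the 3 libraries of each kind came from different cultures. Each p-value then only weighs a group difference against the spread among libraries, and that spread may be technical.

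Esr1 itself was low, at 0.347, 0.227 and 0.260 FPKM in SH and 0.254, 0.181 and 0.210 FPKM in SH_E2, against 0.404, 0.435 and 0.187 FPKM in NC and 0.389, 0.319 and 0.234 FPKM in NC_E2. The SH and NC libraries overlap in Esr1, so its level does not separate them, and at these levels it was not tested. Libraries held 42.1 to 68.8 M estimated counts. Of 13 mast cell markers, 9 had a median of 1 FPKM or more over the 24 libraries, Kit among them, while Tpsb2, Mcpt4, Ms4a2 and Fcer1a had medians below 1 FPKM. Summed mast cell markers ran from 998 to 1204 FPKM in SH and 1049 to 1223 FPKM in SH_E2, against 788 to 1025 FPKM in NC and 815 to 1047 FPKM in NC_E2. That rise was in Cpa3, which averaged 517 FPKM in SH and 219 FPKM in NC. The other 12 markers summed to 509 to 659 FPKM in SH and 519.7 to 636 FPKM in SH_E2, against 604 to 735 FPKM in NC and 619.9 to 741 FPKM in NC_E2. Of 5 macrophage markers, 2 had a median of 1 FPKM or more, and the sum of the 5 ran from 29.7 to 33.7 FPKM in SH and 31.2 to 36.1 FPKM in SH_E2, against 23.4 to 26.02 FPKM in NC and 22.4 to 25.2 FPKM in NC_E2, with the defining markers Csf1r and Cd14 near 0. There the rise was in Lyz2, at 10.7 FPKM in SH and 4.32 FPKM in NC on average, and the other 4 overlap, at 19.1 to 23.5 FPKM in SH and 19.7 to 21.9 FPKM in NC. The part of these shifts in the results was not tested. On the 147 genes, the first principal component held 33.2% of the variation and separated all 6 SH and SH_E2 libraries from the other 18. The second held 20.8% and largely followed the replicate number.

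Ranked by level, the solute carriers of P815 cells were led by genes of mitochondrial nucleotide exchange, amino acid exchange and zinc transport. A total of 8 genes averaged 100 FPKM or more over the 24 libraries, and the median of the 147 was 6.30 FPKM, against 6.79 FPKM for the 12183 genes tested. Slc25a5, which exchanges ADP for ATP across the inner mitochondrial membrane, was highest at 407 FPKM on average (312 to 462 over libraries). Slc25a4, its paralog, averaged 135 FPKM, and Slc25a3, the mitochondrial phosphate carrier, 103 FPKM. The 34 mitochondrial carriers had a median of 7.75 FPKM and were the most numerous class. The 22 genes for amino acids and peptides had the highest class median among transporters, 17.1 FPKM. Slc7a5, the large neutral amino acid exchanger, averaged 286 FPKM, and Slc3a2, the heavy chain that carries it to the membrane, averaged 266 FPKM. Slc1a5, an exchanger of glutamine, followed at 142 FPKM.

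Among the 25 genes for metals and heme, Slc39a6, a zinc importer, stood at 288 FPKM, far above Slc48a1, a heme transporter, at 61.8 FPKM and Slc39a10, another zinc importer, at 31.8 FPKM. Sugar carriers numbered 11, led by the glucose transporters Slc2a3 at 154 FPKM and Slc2a1 at 66.5 FPKM and by Slc45a3 at 51.2 FPKM. The 14 genes for organic anions and cations were led by the lactate carriers Slc16a1 at 56.8 FPKM and Slc16a3 at 42.4 FPKM and by Slc13a2, a carrier of citrate and other dicarboxylates, at 25.8 FPKM. For nucleosides, vitamins and cofactors, the nucleoside transporter Slc29a1 averaged 32.7 FPKM, the acetyl-CoA transporter Slc33a1 16.4 FPKM and the thiamine transporter Slc19a2 10.9 FPKM. Among ion carriers, Slc12a4, a potassium-chloride cotransporter, averaged 15.01 FPKM and the anion exchanger Slc4a2 12.2 FPKM. Nucleotide sugar genes were led by Slc35a4 at 17.2 FPKM, Slc35a1 at 8.37 FPKM and Slc35a3 at 6.002 FPKM, and lipid and choline genes by Slc27a1 at 11.7 FPKM, Slc44a2 at 5.37 FPKM and Slc27a4 at 4.796 FPKM. Slc20a1, a phosphate importer, averaged 24.9 FPKM, against 3.13 FPKM for Slc20a2 and 1.70 FPKM for the sulfate carrier Slc26a2. The one gene left without a class, Slc45a4, averaged 2.18 FPKM. The scaffold gene Slc9a3r1 averaged 43.03 FPKM, Slc7a6os 14.97 FPKM and Slc4a1ap 6.30 FPKM.

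**Figure D1:**
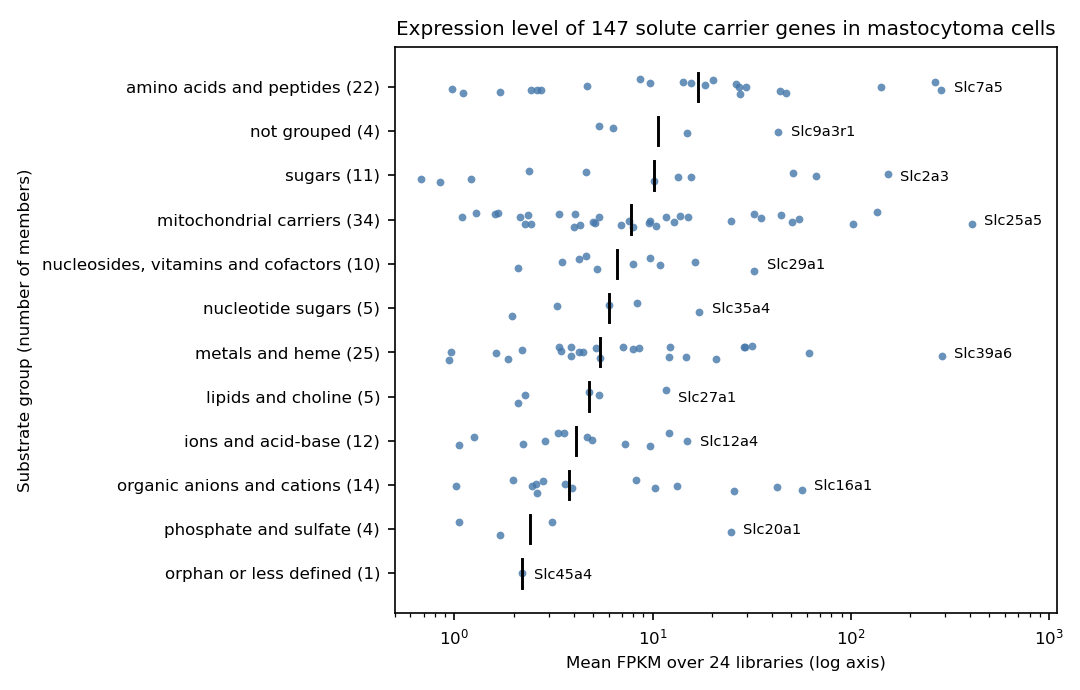
Mean FPKM of each of the 147 genes over 24 libraries on a log axis, by substrate class, with a bar at the class median and the highest gene named. Amino acid carriers have the highest median among the transporter classes (17.1 FPKM) and Slc25a5 is the highest single gene (407 FPKM).

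Genes below the threshold included 4 that are known from mast cells, macrophages or iron handling. Slc6a4, the serotonin transporter, reached at most 19 estimated counts in a library, and Slc22a3, an organic cation transporter, at most 12. Slc40a1, the iron exporter ferroportin, reached at most 4, and Slc11a1, the phagosomal metal transporter of macrophages, at most 136 with a mean of 0.239 FPKM. None of them was tested.

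Across the 24 libraries the highest value of a gene was a median of 2.05 times its lowest, and 69 of the 147 stayed within 2-fold. Group means lay 2-fold or more apart for 16 genes, and in all 16 the highest or the lowest mean was in SH or SH_E2. Slc2a9, which had to be higher in hairpin libraries, is among the 16, and the share over all genes was not counted. The solute carriers together took 1.52 ± 0.026% of the counts in SH and 1.53 ± 0.011% in SH_E2, against 1.66 ± 0.049% in NC and 1.67 ± 0.024% in NC_E2 (SD, n = 3). Every hairpin library lay below every NC and NC_E2 library in this share.

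Whether cells with the Esr1 hairpin express other transporters than vector cells was examined without and with E2. Fold changes are log2 with their standard error (SE), from edgeR's quasi-likelihood test, and a gene passed at a Benjamini-Hochberg adjusted p under 0.05 over all 12183 genes tested. Without E2, 21 of the 147 genes passed, 13 higher and 8 lower in SH, which is 14.3% of them beside 9.07% of all genes tested (4.92% higher and 4.15% lower). With E2, 24 passed, 15 higher and 9 lower in SH_E2, which is 16.3% beside 9.59% of all genes (5.3% higher and 4.28% lower). Without Slc2a9, whose direction the choice of genes fixed, 20 and 23 passed, and 17 in both. The median log2 fold change of the 147 was -0.03 in both states, against 0.00 over all genes. The SH and NC libraries did not overlap in 51 of the genes (34.7%, beside 26.9% of all genes), nor the SH_E2 and NC_E2 libraries in 56 (38.1%, beside 26.3%). Slc2a9 is in both of these counts. With the replicate number as a block, which in this comparison meets the criterion for pairing, 48 genes passed without E2, 20 higher and 28 lower, and none of the 21 was lost. That is 32.7% of the 147, beside 21.1% of all genes in the blocked fit (10.2% lower).

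The comparisons without and with E2 share no library but are not independent. A single fit over all 24 libraries gave both the same estimate of spread, and same-numbered SH and SH_E2 libraries deviated together (r = 0.183 to 0.472). The comparisons had 18 genes in common, 85.7% of the genes that passed without E2 and 75% of those that passed with it. Of the 18, 11 were higher and 7 lower in the hairpin cells (12.2% of the 147 passed in both, beside 7.09% of all genes). Slc2a9, whose direction the choice of genes fixed, is among the 18, and 17 remain without it. Of the 27 genes that passed in either state, 26 had the same sign in both, and the exception was Slc44a2. Over all 147 genes the fold changes of the 2 states correlated with a Pearson r of 0.869, against 0.615 over all genes tested, a description across genes that are not independent. In 24 of the genes all 6 hairpin libraries lay outside the range of the other 18 libraries, antiestrogen arms included (16.3%, beside 8.95% of all genes). Slc2a9 was not set aside in this count or in the correlation. Leaving out 1 library at a time, between 11 and 15 genes passed without E2 and between 13 and 17 with E2. Without E2, 8 passed in all 6 such fits, namely Slc25a30, Slc38a2, Slc17a9, Slc7a11, Slc35a1, Slc44a1, Slc41a3 and Slc25a23. With E2, and leaving Slc2a9 aside, there were 6, namely Slc17a9, Slc7a11, Slc16a4, Slc41a3, Slc25a23 and Slc25a16. With replicate 1 left out of every group, Slc25a30 and Slc38a2 did not pass without E2 (adjusted p = 0.0613 and 0.0942). Slc25a16 did not pass with E2 in that fit (adjusted p = 0.0502). The other genes just named kept their calls in it. In bulk RNA, fewer expressing cells and less RNA per cell cannot be told apart.

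**Figure D2:**
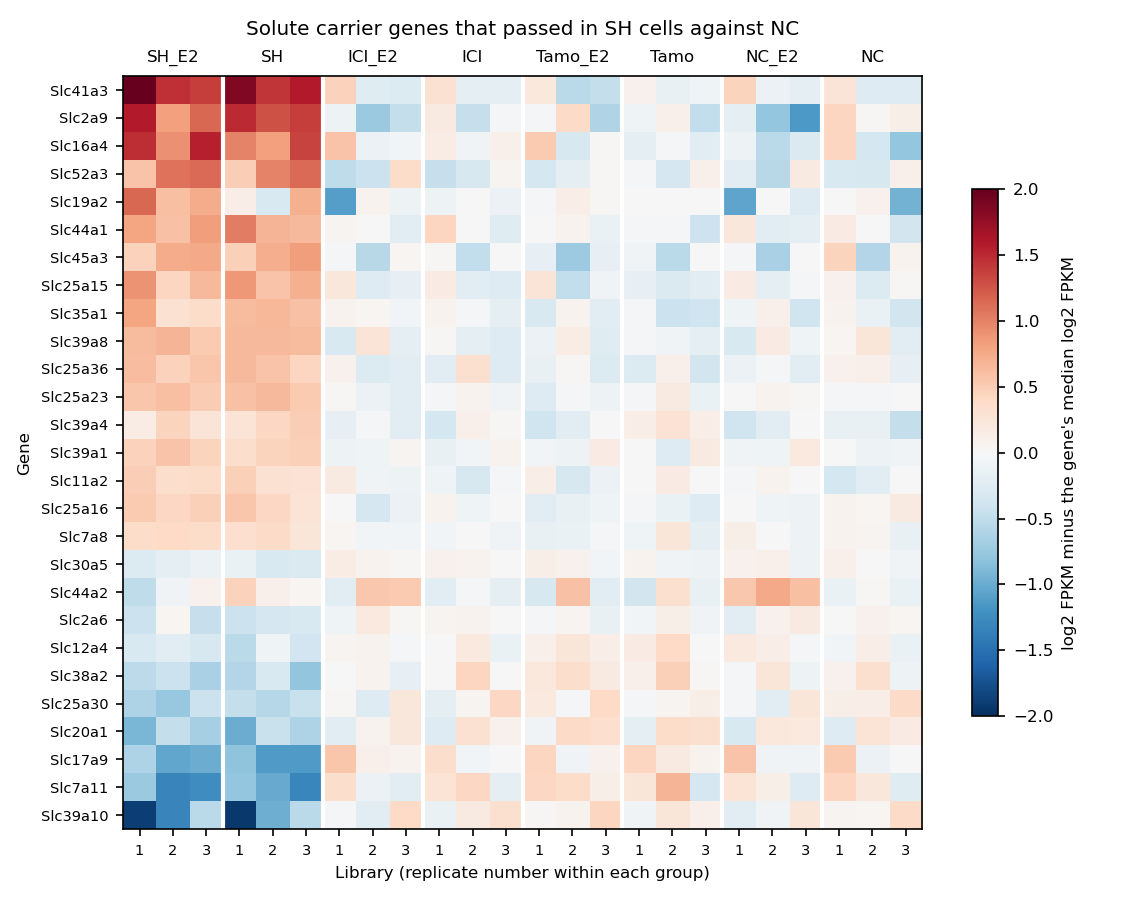
log2 FPKM of the 27 genes that passed in SH against NC in either E2 state, minus each gene's median over the 24 libraries, with 1 column per library. The 6 SH_E2 and SH columns differ from the 18 others in most rows, and the order runs from Slc41a3, highest in the hairpin cells, to Slc39a10, lowest.

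Of the 22 amino acid carriers, 2 fell and none rose without E2 (9.09%, beside 9.07% of all genes). With E2, 2 fell and 1 rose (13.6%, beside 9.59%), and the class median log2 fold change was -0.22 in both states. Slc7a11 imports cystine in exchange for glutamate and feeds glutathione synthesis. It had 16.8, 14.3 and 11.7 FPKM in SH libraries, against 38.6, 33.8 and 24.3 FPKM in NC. With E2 it had 17.2, 11.6 and 12.2 FPKM in SH_E2, against 34.97, 31.1 and 24.1 FPKM in NC_E2. Every hairpin library lay below each of the 18 others (11.6 to 17.2 against 22.7 to 45.9 FPKM), and the log2 fold change was -1.23 ± 0.23 without E2 (adjusted p = 0.00167) and -1.19 ± 0.23 with it (adjusted p = 0.00216). Slc38a2 takes up small neutral amino acids with sodium and is known to be induced when amino acids run short. It had 29.4, 35.9 and 25.5 FPKM in SH, against 46.9, 54.9 and 41.4 FPKM in NC, a log2 fold change of -0.71 ± 0.15 (adjusted p = 0.00415). With E2 it had 30.6, 32.7 and 28.1 FPKM in SH_E2, against 43.2, 52.5 and 41.1 FPKM in NC_E2, a log2 fold change of -0.63 ± 0.15 (adjusted p = 0.0104). The groups do not overlap in either state, but the call with E2 was lost without SH_E2 replicate 3 or NC_E2 replicate 2 (adjusted p = 0.0575 and 0.0679). Slc7a8, a neutral amino acid exchanger of the Slc7a5 type, passed as higher with E2 alone. It had 33.7 ± 0.432 FPKM in SH_E2 and 26.03 ± 2.01 FPKM in NC_E2 (SD, n = 3), a log2 fold change of 0.32 ± 0.09 (adjusted p = 0.0320). It lost that call without any one of SH_E2 replicate 1, 2 or 3 or NC_E2 replicate 2 or 3 (adjusted p = 0.0617 to 0.145). Its log2 fold change with E2 minus that without it was 0.05 ± 0.13.

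The 3 most abundant amino acid genes did not pass in the unblocked fit. Slc7a5 had 286, 253 and 233 FPKM in SH, against 293, 302 and 277 FPKM in NC, with a log2 fold change of -0.23 ± 0.08 (adjusted p = 0.0757). Its partner Slc3a2 had 280.2, 196 and 194 FPKM in SH, against 285, 290.3 and 232 FPKM in NC (-0.33 ± 0.16, adjusted p = 0.237). Slc1a5 had 145, 112 and 111 FPKM in SH, against 151, 138 and 134 FPKM in NC (-0.26 ± 0.13, adjusted p = 0.262). In all 3 genes SH replicates 2 and 3 lay below the NC libraries and SH replicate 1 did not, and the groups overlap. With the replicate block they passed without E2 as lower, with adjusted p = 0.00581 for Slc7a5, 0.00978 for Slc3a2 and 0.00477 for Slc1a5. In that fit 9 of the 22 amino acid genes were lower and 1 was higher, beside 10.2% of all genes lower in it.

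Of the 11 sugar carriers, 1 was lower without E2 and 1 higher with E2, besides Slc2a9, which was higher in both. With Slc2a9 that is 18.2% in each state, beside 9.07% of all genes without E2 and 9.59% with E2. Since the choice of genes fixed the rise of Slc2a9, the 18.2% cannot be read against those shares. Without Slc2a9, 1 gene of the class passed in each state. Slc2a9, which transports urate in mouse and human and entered the set through the hairpin libraries, had 1.48, 1.27 and 1.37 FPKM in SH and 1.58, 0.927 and 1.16 FPKM in SH_E2, against 0.710, 0.534 and 0.569 FPKM in NC and 0.461, 0.307 and 0.238 FPKM in NC_E2. The 4.10-fold span of its group means is the widest of the 147 genes and the single one above 4-fold. The log2 fold changes were 1.13 ± 0.28 without E2 and 1.80 ± 0.29 with it, given as a description since the rule used these levels. Slc45a3, a sugar transporter family member, averaged 75.3 ± 8.57 FPKM in SH_E2 and 41.8 ± 9.80 FPKM in NC_E2. Its log2 fold change of 0.80 ± 0.25 with E2 (adjusted p = 0.0495) did not pass when any one of the 6 libraries was left out (adjusted p = 0.0547 to 0.225). Gm29103 overlaps it on the same strand, so reads may be shared. Slc2a6, a glucose transporter family member, passed as lower without E2 alone (-0.46 ± 0.14, adjusted p = 0.0431), at 8.26 ± 0.353 FPKM in SH and 10.9 ± 0.345 FPKM in NC. It lost the call without any one library (adjusted p = 0.0697 to 0.141), and its log2 fold change with E2 minus that without it was 0.12 ± 0.19.

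The main glucose transporters did not pass in the unblocked fit. Slc2a3 had 79.6, 138 and 119.7 FPKM in SH, against 135, 185 and 157 FPKM in NC, and 80.6, 136 and 124 FPKM in SH_E2, against 144, 179 and 182 FPKM in NC_E2. Its log2 fold change was -0.56 ± 0.24 without E2 (adjusted p = 0.171, and 5.26e-05 with the block). Slc2a1 had 20.6, 73.9 and 63.1 FPKM in SH, against 48.2, 76.8 and 77.0 FPKM in NC, and did not pass in either fit (-0.41 ± 0.41, adjusted p = 0.657). In both genes replicate 1 was the lowest library in every group.

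Monocarboxylate and other organic anion carriers held 1 riser and 1 faller in each state among 14. That is 14.3%, beside 9.07% of all genes without E2 and 9.59% with E2. Slc16a4, a monocarboxylate family member with less settled substrates, had 1.55, 1.38 and 1.98 FPKM in SH, against 1.04, 0.610 and 0.455 FPKM in NC. With E2 it had 2.17, 1.47 and 2.30 FPKM in SH_E2, against 0.728, 0.534 and 0.634 FPKM in NC_E2. The hairpin libraries lay above every other library, and the log2 fold change was 1.16 ± 0.28 without E2 (adjusted p = 0.0104) and 1.59 ± 0.28 with it (adjusted p = 0.000947). The call without E2 was lost without any one of SH replicate 3 or NC replicate 2 or 3 (adjusted p = 0.0579 to 0.0687). Slc17a9, which loads ATP and other nucleotides into secretory vesicles and granules, had 5.97, 4.797 and 4.77 FPKM in SH, against 15.1, 9.70 and 10.4 FPKM in NC. It had 6.83, 5.11 and 5.24 FPKM in SH_E2, against 15.6, 9.97 and 10.0 FPKM in NC_E2. Its 6 hairpin libraries (4.77 to 6.83 FPKM) lay below the other 18 (9.70 to 15.6 FPKM), and the log2 fold change was -1.23 ± 0.21 without E2 (adjusted p = 0.000491) and -1.10 ± 0.21 with it (adjusted p = 0.00132).

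The lactate carriers did not pass. Slc16a1 had 46.3, 74.1 and 78.9 FPKM in SH, against 46.8, 56.0 and 65.96 FPKM in NC (0.18 ± 0.23), and Slc16a3 had 23.8, 54.9 and 58.8 FPKM in SH, against 31.8, 37.7 and 55.5 FPKM in NC (0.08 ± 0.39). The groups overlap widely in both. With the block, Slc14a1, a urea transporter, passed as higher in SH without E2 (adjusted p = 2.88e-05), at 2.80, 4.81 and 5.39 FPKM in SH, against 1.53, 1.86 and 2.79 FPKM in NC, and Slc13a2 passed as lower (adjusted p = 0.000541), at 29.01, 14.2 and 12.1 FPKM in SH, against 33.6, 26.1 and 17.9 FPKM in NC. Each SH library differed from the NC library of the same number in that direction. Slc13a2 overlaps Slc13a2os on the opposite strand.

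Of the 25 metal carriers, 5 were higher and 2 lower without E2, and 3 higher and 2 lower with E2. With the block 5 were higher and 4 lower without E2, where 21.1% of all genes passed in either direction. Slc41a3, of the magnesium transporter family, had 12.2, 9.14 and 10.2 FPKM in SH, against 4.05, 2.84 and 2.82 FPKM in NC. With E2 it had 14.8, 9.32 and 8.83 FPKM in SH_E2, against 4.603, 3.11 and 2.98 FPKM in NC_E2. The lowest hairpin library (8.83 FPKM) stood above the highest of the 18 others (4.68 FPKM), and the log2 fold change was 1.64 ± 0.26 without E2 (adjusted p = 0.000299) and 1.57 ± 0.26 with it (adjusted p = 0.000427). Slc39a10, a plasma membrane zinc importer, moved the other way. It had 8.94, 17.4 and 23.5 FPKM in SH, against 35.6, 35.3 and 44.5 FPKM in NC. With E2 it had 9.30, 13.7 and 23.5 FPKM in SH_E2, against 29.4, 32.7 and 40.6 FPKM in NC_E2. Replicate 1 of both hairpin groups was the lowest and replicate 3 the highest, and all 6 lay below the other 18. The log2 fold change was -1.27 ± 0.31 without E2 (adjusted p = 0.0115), lost without SH replicate 1 or NC replicate 3 (adjusted p = 0.0543 and 0.0583), and -1.19 ± 0.31 with it (adjusted p = 0.0177), lost without any one of SH_E2 replicate 1 or 2 or NC_E2 replicate 3 (adjusted p = 0.0700 to 0.0939).

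The Slc39a family of zinc importers has 11 members in the set. Of these, 3 were higher and 1, Slc39a10, lower without E2, and 2 higher and 1 lower with E2. Beside this, 9.07% of all genes tested passed without E2 and 9.59% with it. Slc39a8 had 2.66, 2.66 and 2.61 FPKM in SH, against 1.73, 2.005 and 1.44 FPKM in NC (0.56 ± 0.16, adjusted p = 0.0364), and a log2 fold change of 0.62 ± 0.16 with E2 (adjusted p = 0.0190). Slc39a1 averaged 36.2 ± 1.47 FPKM in SH and 25.8 ± 0.952 FPKM in NC (0.43 ± 0.12, adjusted p = 0.0283), and a log2 fold change of 0.42 ± 0.12 with E2 (adjusted p = 0.0312). Slc39a4 averaged 2.85 ± 0.223 FPKM in SH and 1.82 ± 0.234 FPKM in NC (0.59 ± 0.17, adjusted p = 0.0301) and passed without E2 alone. These 3 calls were sensitive to single libraries. In the fits without E2, Slc39a8 lost its call without any one of SH replicate 1, 2 or 3 or NC replicate 1 or 3 (adjusted p = 0.0776 to 0.173) and with E2 without any one of SH_E2 replicate 2 or NC_E2 replicate 1 or 3 (adjusted p = 0.0612 to 0.0977). In the same fits without E2, Slc39a1 lost its call without any one of SH replicate 2 or 3 or NC replicate 1, 2 or 3 (adjusted p = 0.0568 to 0.101) and with E2 without any one of SH_E2 replicate 2 or 3 or NC_E2 replicate 1 or 2 (adjusted p = 0.0543 to 0.134). Slc39a4 lost it without any one of SH replicate 2 or 3 or NC replicate 1, 2 or 3 (adjusted p = 0.0534 to 0.145).

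Among the other metal genes, Slc11a2, an importer of ferrous iron, passed without E2 alone. It averaged 4.71 ± 0.358 FPKM in SH and 3.23 ± 0.385 FPKM in NC (0.48 ± 0.12, adjusted p = 0.0160). It lost the call without any one of SH replicate 1 or NC replicate 1 or 2 (adjusted p = 0.0640 to 0.0892). Its log2 fold change with E2 minus that without it was -0.13 ± 0.17. Slc30a5, which moves zinc into the secretory pathway, had a small fall, at 11.2, 10.0 and 10.1 FPKM in SH, against 13.2, 12.5 and 11.8 FPKM in NC (-0.32 ± 0.08, adjusted p = 0.0156), and a log2 fold change of -0.27 ± 0.08 with E2 (adjusted p = 0.0373). It lost the call without E2 without any one of SH replicate 2 or 3 or NC replicate 1 (adjusted p = 0.0584 to 0.0710) and with E2 without any one of SH_E2 replicate 1 or 2 or NC_E2 replicate 1 or 2 (adjusted p = 0.0769 to 0.167). Slc30a1, the zinc exporter of the plasma membrane, had 7.199, 5.91 and 3.51 FPKM in SH, against 3.52, 4.41 and 3.01 FPKM in NC, overlapping values that did not pass (0.54 ± 0.34, adjusted p = 0.402). The most abundant metal genes did not pass. Slc39a6 had 337, 282 and 259.7 FPKM in SH, against 337, 272 and 255 FPKM in NC, a log2 fold change of -0.03 (95% confidence interval -0.33 to 0.26). Slc48a1 had 46.96, 60.4 and 65.8 FPKM in SH, against 56.5, 69.1 and 62.5 FPKM in NC, a log2 fold change of -0.18 (95% confidence interval -0.50 to 0.15). Slc39a14, a carrier of zinc, manganese and iron, passed without E2 in the blocked fit alone (adjusted p = 5.26e-05), at 5.40, 7.15 and 7.26 FPKM in SH, against 8.07, 9.66 and 10.2 FPKM in NC.

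Of the 34 mitochondrial carriers, 3 were higher and 1 lower without E2 (11.8%, beside 9.07% of all genes) and 4 higher and 1 lower with E2 (14.7%, beside 9.59%), shares near those of all genes. Slc25a23, a calcium-regulated carrier of ATP-magnesium and phosphate, had the tightest rise. It had 20.6, 21.4 and 19.8 FPKM in SH, against 13.4, 13.3 and 13.8 FPKM in NC (0.55 ± 0.09, adjusted p = 0.000344), and 20.2, 20.8 and 19.5 FPKM in SH_E2, against 13.6, 14.4 and 13.9 FPKM in NC_E2 (0.48 ± 0.09, adjusted p = 0.00115). Gm17168 overlaps it on the opposite strand. Slc25a15, the ornithine carrier of the urea cycle, had 6.61, 5.41 and 5.97 FPKM in SH, against 3.86, 3.02 and 3.70 FPKM in NC (0.71 ± 0.18, adjusted p = 0.0132), lost without SH replicate 1 or NC replicate 2 (adjusted p = 0.0583 and 0.0818). With E2 its log2 fold change was 0.62 ± 0.18 (adjusted p = 0.0295), lost without any one of SH_E2 replicate 1 or 3 or NC_E2 replicate 2 or 3 (adjusted p = 0.0645 to 0.134). Slc25a36, a pyrimidine nucleotide carrier, had 7.88, 7.51 and 6.80 FPKM in SH, against 5.34, 5.42 and 4.52 FPKM in NC (0.48 ± 0.15, adjusted p = 0.0437), and 0.61 ± 0.15 with E2 (adjusted p = 0.00968). Its call without E2 was lost without any one library (adjusted p = 0.0657 to 0.177), and that with E2 without NC_E2 replicate 3 (adjusted p = 0.0503).

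Slc25a30, an uncoupling protein-like carrier, was the one mitochondrial gene that fell in the unblocked fit, at 5.58, 5.21 and 5.69 FPKM in SH, against 8.41, 8.47 and 10.1 FPKM in NC (-0.77 ± 0.17, adjusted p = 0.00467). In the E2 groups it had 5.07, 4.62 and 5.78 FPKM in SH_E2, against 7.61, 6.73 and 9.15 FPKM in NC_E2 (-0.65 ± 0.17, adjusted p = 0.0155), lost without any one of SH_E2 replicate 1 or 2 or NC_E2 replicate 3 (adjusted p = 0.0571 to 0.0988). Slc25a16, linked to coenzyme A in mitochondria, passed with E2 alone, at 5.25 ± 0.198 FPKM in SH_E2 and 3.63 ± 0.160 FPKM in NC_E2 (0.48 ± 0.11, adjusted p = 0.00534). The block gave 6 higher and 3 lower mitochondrial genes without E2, where 21.1% of all genes passed in either direction. The abundant carriers did not pass in the unblocked fit. The log2 fold change without E2 was -0.10 (95% confidence interval -0.40 to 0.20) for Slc25a5, -0.13 (95% confidence interval -0.34 to 0.08) for Slc25a4 and -0.19 (95% confidence interval -0.43 to 0.04) for Slc25a3.

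The smaller classes held few genes that passed. Of 10 genes for nucleosides, vitamins and cofactors, 1 was higher without E2 and 2 with E2, and of 5 for nucleotide sugars the same 1 was higher in both states. Of 5 lipid and choline genes, 1 was higher without E2, and 1 higher and 1 lower with E2. Of 4 for phosphate and sulfate the same 1 was lower in both states, and of 12 for ions and acid-base 1 passed as lower, with E2 alone. Of all genes tested, 9.07% passed without E2 and 9.59% with it. Slc52a3, a riboflavin importer, had 6.45, 9.12 and 9.96 FPKM in SH, against 3.69, 3.67 and 4.90 FPKM in NC, and 6.77, 9.69 and 10.0 FPKM in SH_E2, against 3.93, 3.09 and 5.19 FPKM in NC_E2. The groups do not overlap in either state, and the log2 fold change was 0.9997 ± 0.26 without E2 (adjusted p = 0.0190), lost without any one of SH replicate 2 or 3 or NC replicate 1 or 2 (adjusted p = 0.0638 to 0.0866), and 1.06 ± 0.26 with it (adjusted p = 0.0132), lost without any one of SH_E2 replicate 2 or 3 or NC_E2 replicate 1 or 2 (adjusted p = 0.0501 to 0.0789). Slc35a1, which brings CMP-sialic acid into the Golgi, had 12.3, 12.5 and 11.7 FPKM in SH, against 8.24, 7.14 and 6.07 FPKM in NC (0.71 ± 0.16, adjusted p = 0.00595), and 0.56 ± 0.16 with E2 (adjusted p = 0.0276), lost without any one of SH_E2 replicate 1 or NC_E2 replicate 1 or 3 (adjusted p = 0.0703 to 0.152). Slc44a1, a choline transporter, had 3.99, 3.13 and 3.07 FPKM in SH, against 2.19, 1.94 and 1.52 FPKM in NC (0.79 ± 0.18, adjusted p = 0.00578), and 0.73 ± 0.18 with E2 (adjusted p = 0.0104), lost without NC_E2 replicate 2 or 3 (adjusted p = 0.0546 and 0.0601). Slc35a1 and Slc44a1 each overlap a gene on the opposite strand, as do Slc20a1, Slc11a2 and Slc12a4, and the library strand is not given.

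Slc20a1, which imports phosphate with sodium, had 12.9, 18.97 and 16.8 FPKM in SH, against 21.6, 31.2 and 28.7 FPKM in NC (-0.80 ± 0.22, adjusted p = 0.0225). In the E2 groups it had 13.6, 18.5 and 16.3 FPKM in SH_E2, against 20.9, 29.8 and 29.4 FPKM in NC_E2 (-0.77 ± 0.22, adjusted p = 0.0271). The groups do not overlap, though replicate 1 was low in every group, and the calls were lost without E2 without any one of SH replicate 1 or 3 or NC replicate 2 or 3 (adjusted p = 0.0531 to 0.116) and with E2 without any one of SH_E2 replicate 1 or 3 or NC_E2 replicate 2 or 3 (adjusted p = 0.0759 to 0.128). Slc19a2, a thiamine transporter, passed as higher with E2 alone, at 22.97, 15.8 and 17.3 FPKM in SH_E2, against 5.03, 10.5 and 8.65 FPKM in NC_E2 (1.16 ± 0.31, adjusted p = 0.0227). It lost the call without any one of SH_E2 replicate 1 or NC_E2 replicate 1 or 3 (adjusted p = 0.0561 to 0.109). Slc12a4 passed as lower with E2 alone, at 12.4 ± 0.551 FPKM in SH_E2 and 16.1 ± 1.19 FPKM in NC_E2 (-0.43 ± 0.12, adjusted p = 0.0307). It lost the call without any one of SH_E2 replicate 1 or 3 or NC_E2 replicate 1 or 2 (adjusted p = 0.0878 to 0.116). Its log2 fold change with E2 minus that without it was -0.06 ± 0.17. Slc29a1 had 28.4, 35.02 and 38.7 FPKM in SH, against 26.3, 31.6 and 35.9 FPKM in NC and did not pass (0.06 ± 0.16). In the blocked fit without E2, Slc19a1, the reduced folate carrier, and Slc29a2, a nucleoside transporter, passed as lower (adjusted p = 2.03e-05 and 6.48e-05).

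**Figure D3:**
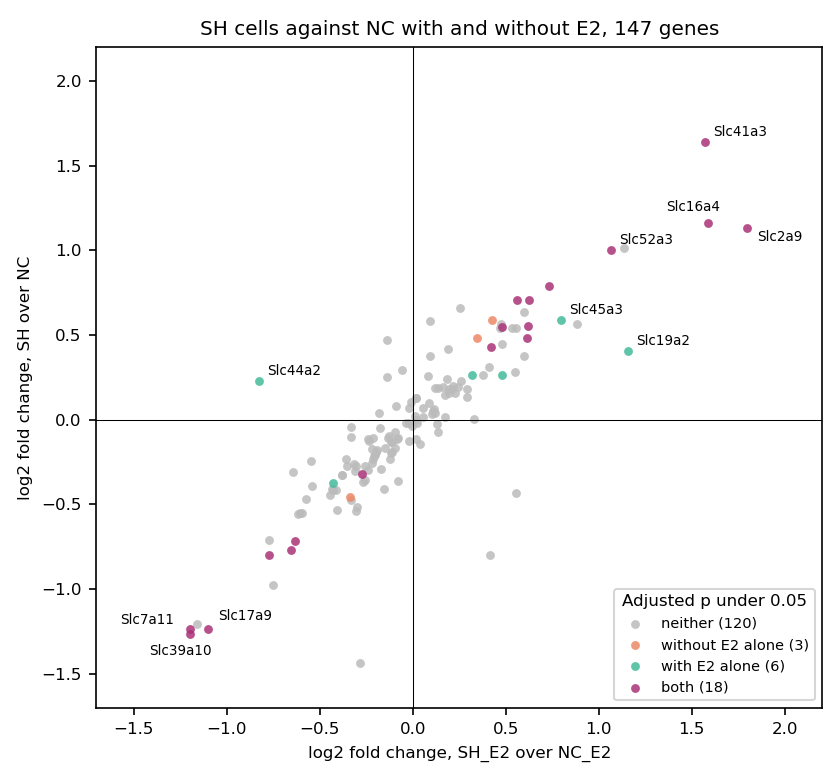
log2 fold change of SH over NC (vertical axis) against that of SH_E2 over NC_E2 (horizontal axis) for 147 genes, coloured by where a gene passed. The 18 genes that passed in both lie in the upper right or lower left, and Slc44a2 lies at upper left, with 0.23 without E2 and -0.83 with it.

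Slc44a2, a choline transporter-like gene, was the one that changed sign. It had 3.45, 4.69 and 5.23 FPKM in SH_E2, against 7.17, 8.31 and 7.44 FPKM in NC_E2, a log2 fold change of -0.83 ± 0.24 (adjusted p = 0.0340) that was lost without any one of SH_E2 replicate 1 or 2 or NC_E2 replicate 1, 2 or 3 (adjusted p = 0.0568 to 0.161). Without E2 it had 6.73, 5.27 and 5.07 FPKM in SH, against 4.49, 4.99 and 4.48 FPKM in NC (0.23 ± 0.24, adjusted p = 0.669). The E2 effect in SH minus that in NC was -1.05 ± 0.34 on the log2 scale. That difference had the smallest p among the 147 genes (unadjusted p = 0.00562) and did not pass over all genes (adjusted p = 1).

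To show the DNA beside these values, the promoters of 3 genes with large differences are printed, taken from RefSeq on GRCm38.p6 as 250 bases before to 50 after the transcription start, 5′ to 3′ on the gene's strand. Capitals mark the matches to 5 short motifs searched on both strands. These were the AP-1 site TGANTCA, the E-box CACGTG, the estrogen response element half-site AGGTCA, the CRE core TGACGT and the amino acid response element core TGATGCA, none of which contains another. The last motif was added after the data were seen, since the mouse Slc7a11 promoter is known to carry such elements, which ATF4 binds.
Slc7a11 at chr3:50443564-50443863, minus strand: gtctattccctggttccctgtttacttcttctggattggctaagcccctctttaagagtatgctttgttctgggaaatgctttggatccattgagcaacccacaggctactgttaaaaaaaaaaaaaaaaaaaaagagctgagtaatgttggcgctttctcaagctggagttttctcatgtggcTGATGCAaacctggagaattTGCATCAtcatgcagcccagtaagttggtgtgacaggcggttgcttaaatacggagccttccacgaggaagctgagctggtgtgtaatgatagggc
Slc41a3 at chr6:90618996-90619295, plus strand: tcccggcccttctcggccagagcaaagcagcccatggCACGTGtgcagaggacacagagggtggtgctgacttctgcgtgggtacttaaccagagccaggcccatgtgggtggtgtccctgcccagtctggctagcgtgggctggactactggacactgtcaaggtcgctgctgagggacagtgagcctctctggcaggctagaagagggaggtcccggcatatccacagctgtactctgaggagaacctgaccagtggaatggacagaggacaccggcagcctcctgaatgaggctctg
Slc2a9 at chr5:38483336-38483635, minus strand: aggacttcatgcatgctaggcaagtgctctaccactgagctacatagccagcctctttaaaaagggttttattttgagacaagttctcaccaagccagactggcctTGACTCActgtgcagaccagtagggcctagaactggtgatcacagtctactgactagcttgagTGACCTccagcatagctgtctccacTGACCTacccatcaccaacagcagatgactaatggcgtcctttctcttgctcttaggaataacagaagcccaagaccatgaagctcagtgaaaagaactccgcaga

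In Slc7a11 the capitals are the amino acid response element core at bases 185 and 205, the second on the other strand. In Slc41a3 they are an E-box at base 38, and in Slc2a9 an AP-1 site at base 107 and estrogen response element half-sites at bases 170 and 195, both on the other strand. A promoter was found for 113 of the 147 genes. The amino acid response element core was in 5.31% of these, against 2.39% of the 7994 tested protein-coding genes with a promoter and 3.63% of all 27025 genes in the table. The E-box was in 19.5% against 12.4% and 8.09%, and the estrogen response element half-site in 15.04% against 14.72% and 18.1%. The AP-1 site was in 7.08% against 5.85% and 8.97%, and the CRE core in 13.3% against 14.6% and 8.37%. A match of letters is a description and not a binding site.

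Carriers with other names and proteins that work with solute carriers were read from lists chosen with earlier results in view. Of 31 carriers with other names, 25 were tested, and 1 was higher and 4 lower in SH without E2, with 1 higher and 2 lower with E2 (median log2 fold changes -0.06 and -0.03). Over all genes tested, 9.07% passed without E2 and 9.59% with it. Mpc2, a subunit of the mitochondrial pyruvate carrier, rose by 0.74 ± 0.17 without E2 (adjusted p = 0.00662) and 0.89 ± 0.17 with E2 (adjusted p = 0.00152). Its partner Mpc1 had 0.35 ± 0.21 without E2 (adjusted p = 0.367) and -0.07 ± 0.21 with E2 (adjusted p = 0.910). Spns2, an exporter of sphingosine-1-phosphate, had a log2 fold change of -1.20 ± 0.21 without E2 (adjusted p = 0.000894), and Slco4a1, an organic anion carrier, -1.15 ± 0.26 (adjusted p = 0.00659). Both passed as lower with E2 too. Sfxn3 and Mfsd1 passed as lower without E2 alone (-0.40 ± 0.09 and -0.28 ± 0.08), and had -0.27 ± 0.09 and -0.24 ± 0.08 with E2.

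Of 20 partner and regulator genes, 17 were tested, and 3 were higher and none lower in SH without E2, with 1 higher with E2 (median 0.21 in both). Beside this, 4.92% of all genes passed as higher without E2 and 5.3% with it. Txnip, known to bring glucose transporters in from the cell surface, averaged 116 FPKM in SH and 36.5 FPKM in NC, a log2 fold change of 1.61 ± 0.37 (adjusted p = 0.00795), and 1.38 ± 0.37 with E2 (adjusted p = 0.0221). Tfeb, a regulator of lysosomal genes, rose by 1.44 ± 0.41 without E2 (adjusted p = 0.0292) and Arl6ip5, which binds a glutamate transporter, by 0.36 ± 0.10 (adjusted p = 0.0288). The RNA of Atf4, the factor of amino acid shortage, had -0.09 ± 0.22 without E2 (adjusted p = 0.887) and -0.40 ± 0.22 with E2 (adjusted p = 0.305). That of Nfe2l2, the factor of the antioxidant response that is known to act on Slc7a11, had 0.04 ± 0.08 (adjusted p = 0.842) and -0.10 ± 0.08 (adjusted p = 0.549). Protein levels were not measured here. Bsg, the chaperone of the lactate carriers, had 0.31 ± 0.22 without E2 (adjusted p = 0.488) and -0.16 ± 0.22 with E2 (adjusted p = 0.764).

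Without E2, 14.2% of all tested genes on chromosome 3 and 2.44% of those on chromosome 19 passed as higher in SH, beside 4.92% of all genes. The 12 solute carriers on chromosome 3 held 3 higher and 1 lower gene in each state, and the 3 on chromosome 19 held none. Their median log2 fold changes without E2 were 0.16 on chromosome 3, where all tested genes had 0.13, and -0.33 on chromosome 19, where all tested genes had -0.32. With genes on both chromosomes left out of the count, 17 genes passed without E2 and 20 with E2. The fit was not rerun for this, so these counts do not test how robust the calls are.

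Estradiol itself was compared with no estradiol in each arm. None of the 147 genes passed, in edgeR or in DESeq2, in SH, ICI, Tamo or NC, and 0% of all genes passed in each. At an unadjusted p under 0.05 edgeR counted 2 of the 147 genes in SH, 3 in ICI, 4 in Tamo and 2 in NC, which is 1.36% to 2.72% of them beside 1.34% to 3.56% of all genes. With the replicate block, whose pairing criterion these comparisons meet, the counts were 2 in SH (1.36%, beside 2.39% of all genes), 7 in ICI (4.76%, beside 3.96%), 14 in Tamo (9.52%, beside 8.81%) and 9 in NC (6.12%, beside 4.34%), and none passed after adjustment. Libraries with and without E2 did not overlap in 6 genes in SH (4.08%, beside 3.87% of all genes), 2 in ICI (1.36%, beside 5.33%), 6 in Tamo (4.08%, beside 6.33%) and 9 in NC (6.12%, beside 7.01%). Averaged over the 4 arms, none passed, beside 0.0575% of all genes. There 2 had an unadjusted p under 0.05 (1.36%, beside 2.42% of all genes), and 4 with the block (2.72%, beside 5.43%). The 95% confidence interval lay within 1 log2 unit of 0 for 92.5% of the genes in SH, 90.5% in ICI, 92.5% in Tamo and 89.8% in NC, and for 98.0% over the arms. A p that misses the threshold does not show that levels were alike, and these intervals bound most genes to less than a 2-fold difference.

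The genes with the smallest p in each arm are given as values. In SH they were Slc39a9, Slc36a1 and Slc19a2. Slc39a9, a zinc carrier of the secretory pathway, had 7.86, 7.09 and 6.58 FPKM in SH_E2, against 2.12, 1.97 and 2.08 FPKM in SH (log2 fold change 1.80 ± 0.69, unadjusted p = 0.0173). Slc36a1, a proton-coupled amino acid carrier of lysosomes, had 2.02, 2.72 and 1.04 FPKM in SH_E2, against 0.966, 0.776 and 0.746 FPKM in SH (1.22 ± 0.55, unadjusted p = 0.0394). Slc19a2 had a value of 0.60 ± 0.31 with overlapping groups. Slc39a9 does not overlap between SH_E2 and SH, but its level jumped by a similar amount between libraries of other groups. It had 7.49, 1.33 and 1.89 FPKM in ICI_E2, against 1.83, 2.54 and 1.70 FPKM in ICI. It had 2.12, 1.92 and 2.01 FPKM in Tamo_E2, against 7.29, 8.57 and 1.20 FPKM in Tamo, and 7.63, 1.79 and 6.16 FPKM in NC_E2, against 1.70, 7.16 and 1.46 FPKM in NC. The 24 libraries thus fell into a low range, from 1.20 to 2.54 FPKM, and a high range, from 6.16 to 8.57 FPKM, with nothing between. Erh overlaps Slc39a9 on the opposite strand, and whether this has a part was not tested.

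In NC the smallest p belonged to Slc44a2, Slc2a9 and Slc12a2. Slc44a2 had 7.17, 8.31 and 7.44 FPKM in NC_E2, against 4.49, 4.99 and 4.48 FPKM in NC (0.71 ± 0.24, unadjusted p = 0.00787). Slc2a9 had 0.461, 0.307 and 0.238 FPKM in NC_E2, against 0.710, 0.534 and 0.569 FPKM in NC (-0.84 ± 0.28, unadjusted p = 0.00822). Slc12a2, a sodium-potassium-chloride cotransporter, averaged 2.48 ± 0.209 FPKM in NC_E2 and 2.97 ± 0.362 FPKM in NC (-0.26 ± 0.14). Slc44a2 was higher and Slc2a9 lower in each NC_E2 library than in any NC library. In ICI the values were 0.29 ± 0.11 for Slc35a4, -0.25 ± 0.10 for Slc4a2 and 0.55 ± 0.26 for Slc10a3. In Tamo they were 0.35 ± 0.13 for the zinc carrier Slc30a4, -0.32 ± 0.13 for the mitochondrial glycine carrier Slc25a38 and -0.38 ± 0.17 for Slc39a4. Over the 4 arms they were -0.12 ± 0.05 for Slc4a2, -0.30 ± 0.14 for Slc2a9 and 0.56 ± 0.27 for Slc36a1.

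Whether the E2 effect differed between an arm and NC was tested as the difference of effects. None of the 147 genes passed for SH, ICI or Tamo minus NC, nor did any of all genes (0%), and at an unadjusted p under 0.05 there were 1, 0 and 5 of the 147 (0.680%, 0% and 3.40%, beside 1.14%, 1.08% and 4.06% of all genes). With the block there were 1, 0 and 17 (0.680%, 0% and 11.6%, beside 1.96%, 2.28% and 9.59%), and none passed after adjustment. Besides Slc44a2, the smallest p for SH belonged to Slc4a7 (0.99 ± 0.53) and Slc19a2 (0.75 ± 0.44). For ICI the values were 0.29 ± 0.16 for Slc35a4, -0.62 ± 0.35 for Slc15a4 and 0.85 ± 0.53 for Slc4a7. For Tamo they were 0.48 ± 0.18 for Slc30a4, 0.47 ± 0.19 for Slc12a2 and 0.95 ± 0.40 for Slc2a9.

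Antiestrogen-treated cells were set against NC, which shares its libraries with the hairpin comparison. No solute carrier passed in ICI against NC or Tamo against NC without E2, beside 0.00821% of all genes in each, and none passed with E2, beside 0%. DESeq2 also called none of the 147. At an unadjusted p under 0.05 edgeR counted 0 of them in ICI_E2 (beside 1.44% of all genes), 1 in ICI (0.680%, beside 0.977%), 5 in Tamo_E2 (3.40%, beside 2.47%) and 4 in Tamo (2.72%, beside 3.53%). With the block, whose pairing criterion ICI_E2 against NC_E2 misses, it counted 2 in ICI_E2 (1.36%, beside 2.74%), 2 in ICI (1.36%, beside 1.95%), 15 in Tamo_E2 (10.2%, beside 6.48%) and 19 in Tamo (12.9%, beside 8.77%), and none passed after adjustment. Libraries did not overlap with those of NC in 2 of the genes in ICI (1.36%, beside 3.32% of all genes) and in 13 in Tamo (8.84%, beside 6.22%). With E2 they did not overlap in 3 genes in ICI_E2 (2.04%, beside 4.2%) and in 6 in Tamo_E2 (4.08%, beside 8.65%). The 95% interval was within 1 log2 unit of 0 for 91.2% of the genes in ICI_E2, 93.2% in ICI, 89.8% in Tamo_E2 and 88.4% in Tamo. The genes that moved most in the hairpin cells can be set beside this. Slc41a3 averaged 3.39 ± 0.703 FPKM in ICI, 3.28 ± 0.289 FPKM in Tamo and 3.24 ± 0.701 FPKM in NC. Slc7a11 averaged 32.7 ± 6.74 FPKM in ICI, 34.3 ± 11.6 FPKM in Tamo and 32.2 ± 7.30 FPKM in NC. Slc17a9 averaged 11.3 ± 1.76 FPKM in ICI, 12.3 ± 1.61 FPKM in Tamo and 11.7 ± 2.93 FPKM in NC. All of these overlap with NC.

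As values, the smallest p in ICI against NC without E2 belonged to Slc35a4, of a nucleotide sugar transporter family, at 14.8, 17.1 and 13.3 FPKM in ICI, against 20.1, 17.2 and 18.8 FPKM in NC (-0.32 ± 0.11, unadjusted p = 0.0115), with no overlap. Slc36a1 had -1.13 ± 0.55 and Slc33a1 -0.43 ± 0.24. With E2 the values were 0.75 ± 0.37 for the bicarbonate carrier Slc4a7, -0.46 ± 0.25 for the peptide and histidine carrier Slc15a4 and -0.74 ± 0.41 for the zinc carrier Slc30a2. In Tamo against NC the creatine transporter Slc6a8 had 4.20, 4.32 and 3.11 FPKM in Tamo, against 2.23, 3.29 and 2.60 FPKM in NC (0.52 ± 0.18, unadjusted p = 0.0115), with 1 Tamo library inside the NC range. Slc39a4 had 0.43 ± 0.17 and Slc4a2 0.26 ± 0.10 there. With E2 the values in Tamo were -0.36 ± 0.13 for Slc25a38, 1.003 ± 0.38 for Slc4a7 and -0.56 ± 0.24 for Slc44a2.

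Directly compared, ICI and Tamo without E2 differed in none of the 147 genes at an adjusted p under 0.05 (0% of all genes), in edgeR or DESeq2, with 4 at an unadjusted p under 0.05 (2.72%, beside 3.22% of all genes) and 14 with the block (9.52%, beside 8.09%). Their libraries did not overlap in 11 genes (7.48%, beside 5.79% of all genes). Fulvestrant is a steroid that leads to loss of the receptor and tamoxifen is a non-steroidal partial agonist. No dose is labelled, so matched doses cannot be assumed, and this was the one pair of compounds compared. The smallest p belonged to Slc35a4, at 15.1 ± 1.91 FPKM in ICI and 18.9 ± 1.99 FPKM in Tamo, a log2 fold change of -0.34 (95% confidence interval -0.58 to -0.10). Slc35a5 had 0.44 (95% confidence interval 0.02 to 0.86) and Slc39a9 -1.49 (95% confidence interval -2.92 to -0.05). Slc39a9 is the gene that lies in either of 2 ranges, and 2 of the 3 Tamo libraries were in the high one. The 95% interval lay within 1 log2 unit of 0 for 89.8% of the 147 genes, beside 79.3% of all genes.

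**Figure D4:**
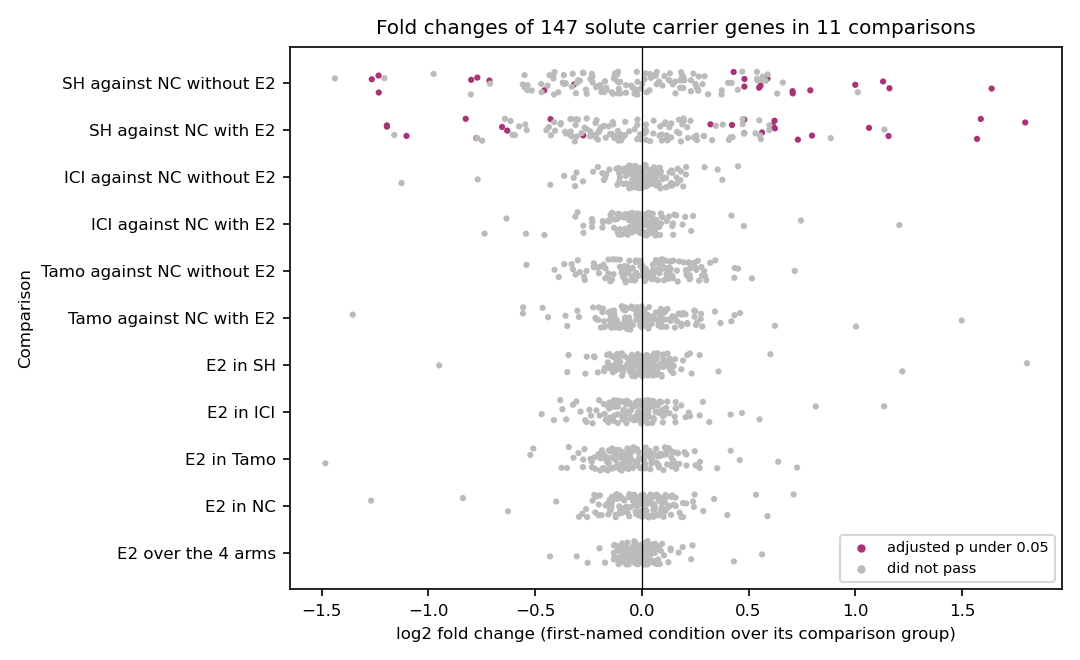
log2 fold changes of the 147 genes in 11 comparisons, 1 point per gene, with genes at an adjusted p under 0.05 coloured. Coloured points appear in the 2 hairpin comparisons (21 and 24 genes) and in none of the others.

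The replicate number marked levels across all groups, whatever the treatment. In 14 of the 147 genes replicate 1 was the lowest library of all 8 groups (9.52%, beside 7.63% of all genes tested), and in 21 it was the highest of all 8 (14.3%, beside 8.59%). The 14 included both main glucose transporters and both lactate carriers. Slc25a10, the mitochondrial dicarboxylate carrier, had a median ratio of replicate 1 to the mean of replicates 2 and 3 of 0.439, Slc16a3 of 0.612, Slc2a1 of 0.622, Slc2a3 of 0.728 and Slc16a1 of 0.765. Slc5a6, a carrier of biotin and pantothenate, stood at 0.584 and Slc14a1 at 0.585. In SH, Slc2a1 had 20.6 FPKM in replicate 1 against 73.9 and 63.1 FPKM in replicates 2 and 3, and in NC 48.2 against 76.8 and 77.0 FPKM.

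Among the 21 genes with replicate 1 on top, Slc22a18 had a median ratio of 1.75, the mitochondrial family member Slc25a47 of 1.73 and Slc7a7, an exchanger of cationic and neutral amino acids, of 1.58. Slc7a7 had 14.5, 6.82 and 6.35 FPKM in SH and 13.6, 7.44 and 7.93 FPKM in NC. Slc41a3 and Slc17a9 also belong here, with ratios of 1.47 and 1.33, and their hairpin differences stand within each replicate number. The labels do not say what a replicate number shares, and its part in the hairpin results beyond the blocked fit was not tested. Other genes varied within groups without following the number. Slc29a3, a lysosomal nucleoside carrier, spanned 15.1-fold over the libraries and had 0.352, 3.87 and 1.98 FPKM in ICI. Slc43a2, a neutral amino acid carrier, spanned 13.8-fold and had 0.247, 2.23 and 2.81 FPKM in SH.

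**Figure D5:**
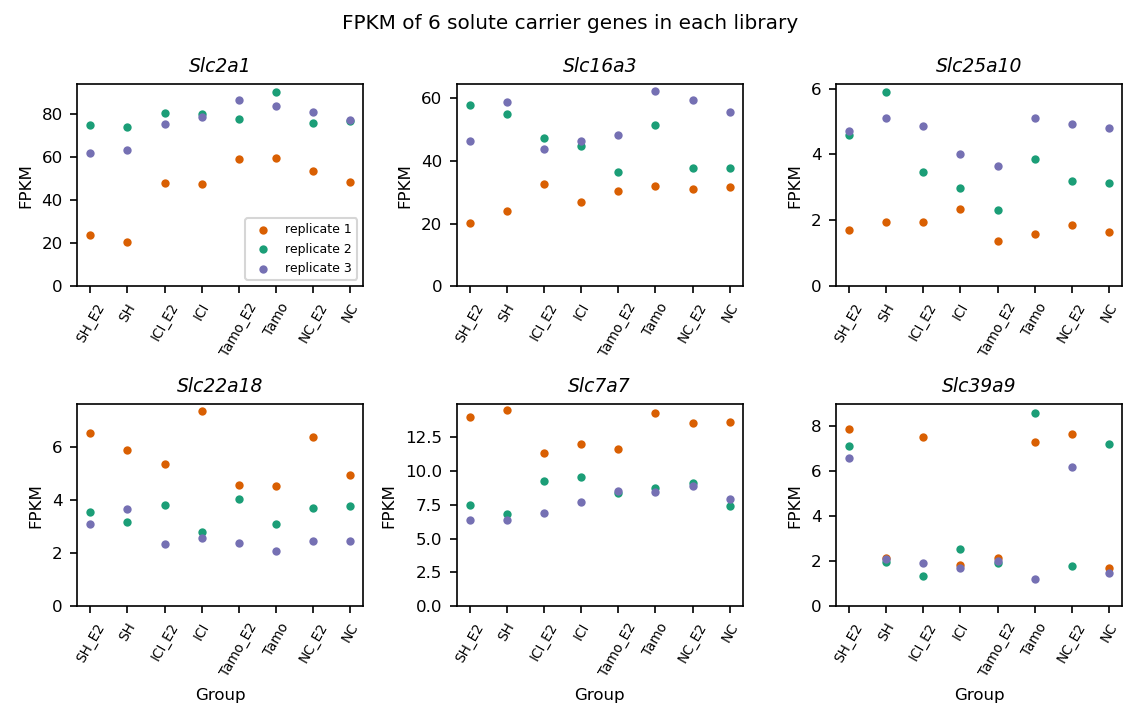
FPKM of 6 genes in each library by group, coloured by replicate number. Replicate 1 is lowest in every group for Slc2a1, Slc16a3 and Slc25a10 and highest for Slc22a18 and Slc7a7, while Slc39a9 lies near 2 or near 7 FPKM with the high libraries spread over replicates 1, 2 and 3.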

How the data were processed

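Total RNA from P815 cells was extracted with TRIzol and made into Illumina libraries, per the labels' protocols, which do not give the strand protocol. Reads were trimmed with cutadapt and aligned to GRCm38 with HISAT2, per the submitters' processing notes, without versions. For the quantifier and its annotation no name is given in the sources used here. As 1 table, the authors deposited an FPKM value and an estimated count per gene and library. The counts were already whole numbers, and low values pile up at multiples of 4 (16.2% of values from 1 to 40 are 4), so the same test was also run on counts divided by 4. An FPKM of 0.0001 stands for no expression, and 99.95% of such cells have a count of 0.

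Counts were tested with edgeR 4.0.16 in R 4.3.3, with TMM factors, 1 coefficient per group over all 24 libraries, the quasi-likelihood test and Benjamini-Hochberg adjustment over the 12183 genes at 1 FPKM or more in at least 3 libraries. DESeq2 1.42.0 and limma 3.58.1, limma on log2 FPKM with a pseudocount of 1 or 0.1, were alternatives. The other alternatives were RLE factors, no filter, a replicate block, the libraries of 1 comparison alone, replicates 2 and 3 alone, and each library left out. Genes on chromosomes 3 and 19 were also left out of the count, without a new fit. On simulated counts for SH against NC over 12183 genes, the test called 53 of 100 genes changed by 2-fold and 86 of 100 changed by 4-fold, with 8 false calls. Same-numbered libraries deviated together with r from 0.0949 to 0.472 over 33 pairs, all 3 pairs above 0.1 in 9 of 11 comparisons, among them SH against NC without E2 but not SH_E2 against NC_E2. No label says what a number shares. Overlaps between genes were read from GENCODE M21.

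The members, lists and rule were chosen with earlier results of these data known. Named genes are, for SH against NC, up to 10 rising and 10 falling among those that passed without overlap. For the other comparisons they are up to 5 each way or, where none passed, the 3 with the smallest p. Also named are the 3 highest per substrate class, genes at the threshold, genes with group means 4-fold apart and a set of 19 well-known carriers. Slc39a1, Slc25a16, Slc7a8, the genes passing only with the block and those described by replicate 1 or by spread were chosen after their values were seen, as were corrections to substrate classes. Some results for genes that match the name pattern are not reported here.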

Additional observations from a re-analysis of the deposited data

How the results depend on the processing

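For SH against NC without E2, 21 genes passed, against 9 with those 6 libraries fitted alone, 48 with the replicate block and 11 to 15 with 1 library left out. For SH_E2 against NC_E2, 24 passed, against 8 with those libraries alone, 15 without the filter on low values, 13 on replicates 2 and 3 alone, 51 with the replicate block (24 higher, 27 lower; pairing there misses the criterion, so this rests on a shared number only) and 13 to 17 with 1 library left out. The block added 27 genes in each state, 17 of them in both and lost none, and in each comparison outside the hairpin ones it called 0 genes, as without it. Fitted alone, the 6 libraries of E2 in SH gave 1 gene, Slc39a9 (log2 fold change 1.81, adjusted p = 0.0169). DESeq2 called 24 without and 32 with E2, and limma on log2 FPKM 20 and 24 with a pseudocount of 1 and 20 and 23 with 0.1. RLE factors gave 21 and 23, and counts divided by 4 gave 21 and 24. Genes on chromosomes 3 and 19 left out of the count, without a new fit, gave 17 and 20. For the named genes and comparisons tallied, 1177 values under an alternative kept direction and side of the threshold, 190 kept direction but no longer passed, 1 passed where it had not before, and 0 changed sign. That tally does not cover every named gene in every comparison. Slc7a5, Slc3a2, Slc1a5, Slc2a3 and Slc13a2 passed without E2 in the blocked fit but not in the unblocked one. Depth limits genes near 1 FPKM, whose fold changes have wide intervals, and 3 libraries a group limit all of them.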
